A study of Mus musculus with 4 samples.

Results

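The genes described here are the bile acid and organic ion transporters of the mouse, chosen by name alone. They are all genes whose array name begins with Slco, Slc22a, Slc10a, Slc47a, Abcb or Abcc followed by a number. By this rule 93 of 55681 probes other than controls, printed as 102 spots, belonged to 70 of 35080 gene names. Of the 70 genes, 51 were measured, meaning that the scanner software judged at least 1 of their probes well above background on the 2 arrays of DMSO or the 2 arrays of GW3965, and 19 were not.

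Hepatocytes make up most of the liver and carry out its metabolism, and those used here were primary cells of bl6 mice, grown in medium with 10% fetal bovine serum. Both groups were then held overnight in 0.5% serum with 5 µM simvastatin, an inhibitor of cholesterol synthesis, and 100 µM mevalonic acid, the product of the step that simvastatin blocks. One group received DMSO, the solvent, and the other 1 µM GW3965, a man-made activator of the liver X receptors (LXR), which are nuclear receptors for oxysterols. Each group had 2 samples, replicates a and b, each on its own 1-colour Agilent array. The treatment label of the treated samples words the agent as LXR against GW3965, and the scanner's names for their arrays read GL where the titles read GW. Whether the replicates came from separate animals or cultures is not in the labels, so the p-values measure only the spread between these samples, which may be technical.

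A hepatocyte takes bile acids, drugs and other organic ions up from blood across its basolateral membrane and passes bile acids, conjugates and phospholipid into bile across its canalicular membrane. Uptake is the work of SLC carriers such as the sodium-dependent taurocholate carrier Slc10a1 and the organic anion transporting polypeptides (Slco genes). Export into bile is driven by ATP through ABC pumps, and other ABC pumps of the Abcc family return conjugates to blood. Values are given as log2 signal after subtraction of the array's 75th percentile, and a difference of 1 is a doubling. A probe's signal depends on its sequence as well as on its transcript, so levels were compared between arrays for 1 probe and not between genes.

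Between 67 and 68 of the 93 probes were well above background on each array, 0 member spots were saturated and 0 were marked as outliers. On the treated arrays Abca1, a sterol transporter and textbook LXR target, read 3.31 and 3.85, against 1.46 and 0.55 with DMSO. This 5.96-fold difference (2.58 ± 0.39, SE) had an unadjusted p of 0.00145 in limma. It did not pass Benjamini-Hochberg adjustment over all genes, so a missing call says little about a gene here. The listed hepatocyte markers were measured in 6 of 6 cases, and their summed level was 10.9 and 10.6 on DMSO replicates a and b and 11.1 and 10.4 on GW3965 replicates a and b. That sum is of linear signal and rests mostly on the probes of Serpina1a and Alb. These read 10.0 and 9.45 on DMSO replicate a, where the next, Ttr, read 7.59. All 5 listed endothelial markers were measured as well, as were 4 of 5 stellate cell and fibroblast, 4 of 5 cholangiocyte and 5 of 6 macrophage and leukocyte markers (the entry without a value, Emr1, is an older name of Adgre1, which is on the list). Markers of other liver cells were thus above background beside those of hepatocytes, 0 of the measured markers passed limma with Benjamini-Hochberg adjustment between treatments, and which cells carried a member's transcript was not tested. In bulk RNA, fewer cells of a type and less RNA per cell cannot be told apart.

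No transporter passed the test for a change with GW3965. Of the 51 measured members, 0 passed limma at a Benjamini-Hochberg adjusted p under 0.05, which was also the share among all 24637 genes tested (0%). At an unadjusted p under 0.05 the members again numbered 0, where 0.824% of all genes lay below it. The mean with GW3965 was higher in 26 members and lower in 25, with a median log2 difference of 0.0031 beside -0.0061 over all genes. Centring each array on its median gave 16 higher and 35 lower, with a median of -0.06 over all genes. Differences ran from -0.23 in Slc47a2, a carrier of the same family as the proton-coupled cation exporter Slc47a1, to 0.31 in Abcc2. Slc47a2 was dim, reading between -5.07 and -4.20 over the arrays. In 2 members both treated arrays exceeded both control arrays (Abcc2 and Slco5a1, against 9.41% of all genes), and in 1 they lay below them (Slc22a15, against 6.55%). In the other 48 the groups overlapped. No member was apart by at least 1.5-fold (0 of 51, against 1.42% of all genes). Some members lay apart by that fold with DMSO replicate a, DMSO replicate b or GW3965 replicate a left out. None did without GW3965 replicate b. A group is then 1 array without spread, and no share of all genes was taken, so these members are not read as changed.

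**Figure D1:**
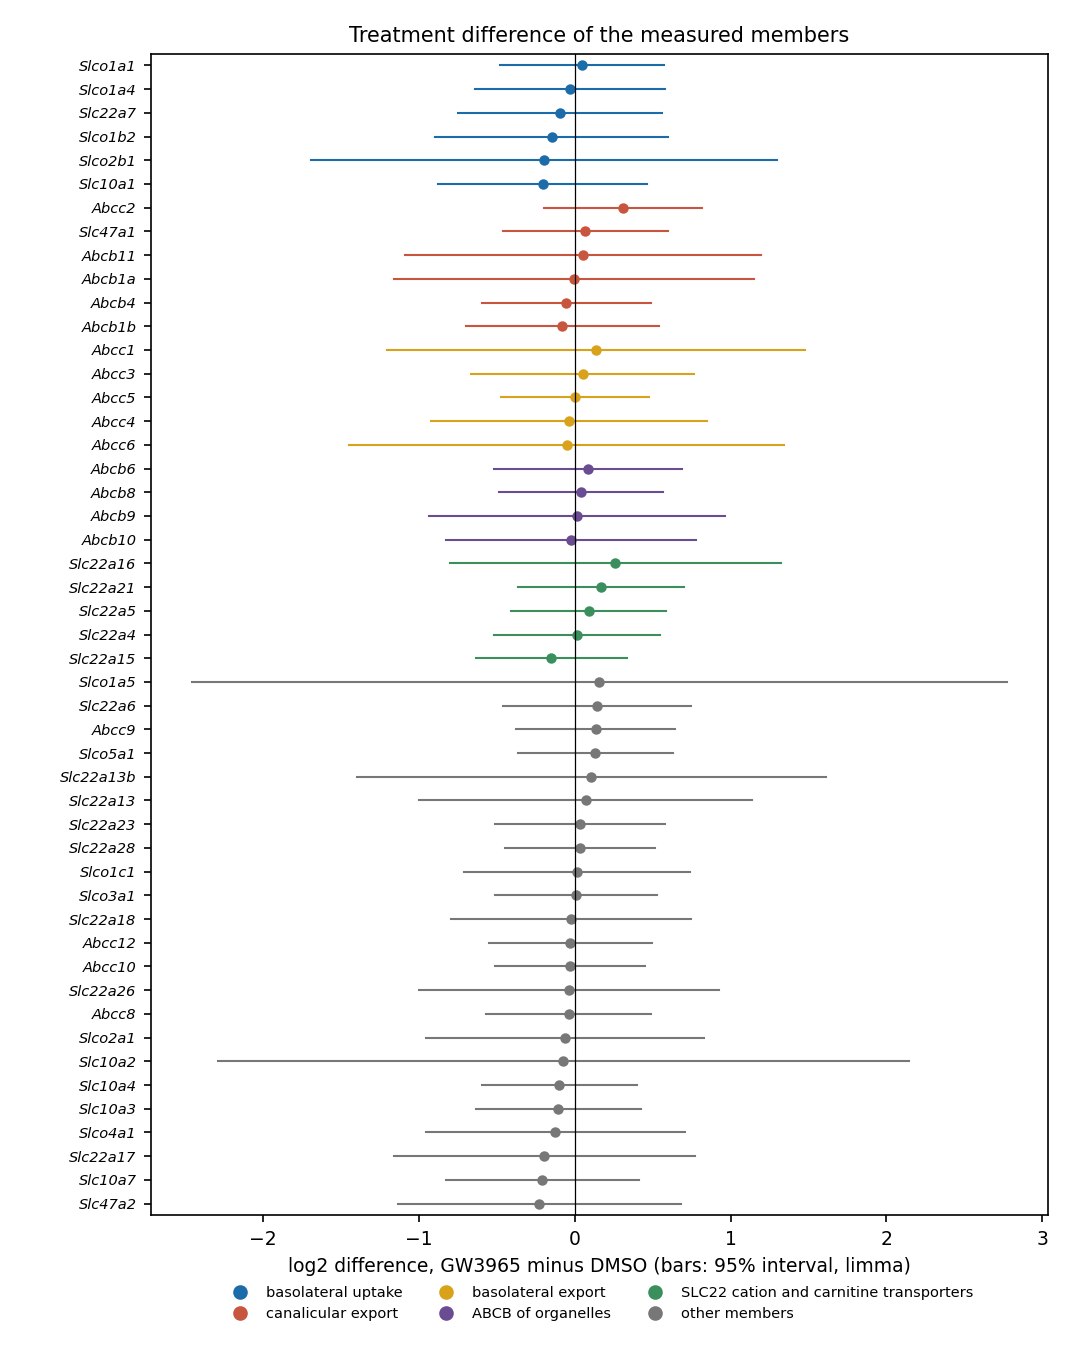
Log2 difference, GW3965 minus DMSO, of each of 49 of the measured members, ordered by transporter class. Points are the means of 2 arrays a group subtracted from each other, and bars are 95% intervals from limma; every bar crosses 0, and the points span -0.23 to 0.31.

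The absence of a call does not show that the transporters stayed level. For Abcc2 the 95% interval of the fold ran from 0.873 to 1.76, and for Slc10a1 from 0.546 to 1.38. It was wider for the bile salt export pump Abcb11, from 0.470 to 2.29, and widest for Slco1a5, an organic anion carrier, from 0.182 to 6.83. Among the members chosen by the rule for named genes, leaving out 1 array turned the sign of the treatment difference in all but Abcc2, Slc22a21 and Slc22a15. It also turned the sign of the median treatment difference of each transporter class. The widths follow from the spread between replicates, which differed between the members and is described with each group. They come from the fit without a block, so the gap between replicates a and b counts in them. In the plot of differences the bars of Abcc1, Abcc6, Slc10a2, Slco1a5, Slco2b1 and Slc22a13b are the longest, and these are the genes whose replicates lay farthest apart.

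Among the basolateral uptake carriers, 7 of 7 listed genes were measured. Their median log2 difference was -0.09, with 2 means higher and 5 lower, and the groups overlapped in all 7. Slc10a1 takes up conjugated bile acids together with sodium. It had a pair of probes that read very differently, and their first 30 bases are shown because the difference bears on every value of this gene. Both lie on the minus strand of mm9, the first at chr12:82056569-82056598 and the second at chr12:82061500-82061529, and capitals mark bases within runs of 16 that a probe or promoter of another gene also holds, on either strand.
Slc10a1 first probe: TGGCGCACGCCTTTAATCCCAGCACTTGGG
Slc10a1 second probe: cctacaaaggcattatgttatcactcgtca

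The first probe stood for the gene because its mean was the higher. Of its 60 bases, 50 lay in such shared runs, which it had in common with 15 probes named for other genes and with the promoters of 46 of 27025 genes with a RefSeq promoter entry. None of the 60 bases of the second probe lay in a shared run, and among the other 65 member probes that passed the filter none shared a run with more than 2 probes or 2 promoters of other genes. The capitals read like the start of B1, a short interspersed repeat found in many mouse transcripts. How much of the first probe's signal came from Slc10a1 was not tested.

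On the first probe Slc10a1 read 9.70 and 9.51 on DMSO replicates a and b and 9.66 and 9.13 on GW3965 replicates a and b. On the second it read -1.69 and -2.27 with DMSO and -1.78 and -2.43 with GW3965. Both probes were lower on the b arrays than on the a arrays, and on both the groups overlapped. The log2 difference with GW3965 was -0.20 ± 0.26 (SE) on the first probe and -0.12 ± 0.33 on the second, and the gap of b minus a was -0.36 and -0.61. With the second probe in place of the first, a choice made after seeing the data, the median treatment difference of the uptake carriers was again -0.09 and their median gap of b minus a was -0.47.

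Slco1b2, the main organic anion transporting polypeptide of mouse hepatocytes, read 0.68 and 0.31 with DMSO and 0.63 and 0.06 with GW3965, each time replicate a first. The a arrays were both above the b arrays, and the groups overlapped (-0.15 ± 0.28). Slc22a7, an organic anion carrier, read 0.81 and 0.49 with DMSO and 0.78 and 0.35 with GW3965. It too had its high values on the a arrays, with a difference of -0.09 ± 0.25 between treatments.

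Slco2b1, a carrier of steroid sulphates, read -2.41 and -3.45 with DMSO and -2.48 and -3.78 with GW3965. It had the widest replicate gap of the uptake carriers: the a arrays were 2.25-fold above the b arrays, while the difference between treatments was -0.20 ± 0.57. Its other probe overlaps the first, and both are shown by their first 30 bases, with the bases held by both stretches in capitals, as a pair of readings of nearly 1 sequence. They lie on the minus strand of mm9, at chr7:106806953-106806982 and chr7:106806931-106806960.
Slco2b1 first probe: cagtttgtacaggaatagcctgGCTGTATA
Slco2b1 second probe: GCTGTATAcatacagctgattattaaattt

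The full probes are offset by 22 bases and share 38. The second read -4.07 and -4.97 with DMSO and -4.02 and -4.91 with GW3965, so that b again lay below a, with a gap of -0.90 against -1.17 on the first. The treatment difference was 0.05 on the second probe and -0.20 on the first, so its sign was not shared by them.

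Slco1a1 and Slco1a4, organic anion carriers of the same chromosome 6 cluster as Slco1b2, did not share the pattern of that gene. Slco1a1 read -1.77 and -1.98 with DMSO and -1.91 and -1.74 with GW3965, so that neither the groups nor the replicate letters were apart. Slco1a4 read -3.61 and -3.58 with DMSO and -3.86 and -3.40 with GW3965. It was the only uptake carrier with both b arrays above both a arrays, and that order turned under normexp background correction. Their differences between treatments were 0.05 ± 0.20 and -0.03 ± 0.23.

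Of the canalicular exporters, 6 of 6 were measured. The median difference with GW3965 was 0.02, with 3 means higher and 3 lower. Abcc2, which exports bilirubin glucuronides and other conjugates into bile, read 4.06 and 4.23 with DMSO and 4.39 and 4.52 with GW3965. Both treated arrays were above both control arrays, and within each replicate letter the treated array was higher, by 0.33 in a and 0.29 in b. The difference of 0.31 ± 0.19 (SE) was a 1.24-fold higher mean, with the smallest p of the members (limma, unadjusted p = 0.173, Benjamini-Hochberg adjusted p = 1.00). It did not pass the test. Its probe lies on the plus strand of mm9 at chr19:43912079-43912138.

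Abcb11, the bile salt export pump, read 1.65 and 2.70 with DMSO and 1.92 and 2.54 with GW3965. Both b arrays were above both a arrays, by 0.84 on average, and the sign of the treated minus control difference differed between the letters, at 0.27 in a and -0.16 in b (0.05 ± 0.44 over both). Abcb4, which moves phosphatidylcholine into bile, read 4.50 and 4.33 with DMSO and 4.50 and 4.22 with GW3965. Its treatment difference was -0.05 ± 0.21, and its b arrays were lower, with a gap of -0.22 on this probe. On its other probe the gap was -1.49, from -2.44 and -2.10 on the a arrays to -3.55 and -3.97 on the b arrays.

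Abcb1a and Abcb1b are the mouse pair of genes for P-glycoprotein, an exporter of drugs. Abcb1a read 1.15 and 0.30 with DMSO and 1.17 and 0.27 with GW3965. Abcb1b read 3.69 and 4.05 with DMSO and 3.64 and 3.94 with GW3965. The replicates of the pair went opposite ways, Abcb1a being 1.83-fold higher on the a arrays and Abcb1b 1.26-fold higher on the b arrays, while their treatment differences were -0.0046 ± 0.44 and -0.08 ± 0.24. Slc47a1, the proton-coupled exporter of organic cations, read -2.36 and -2.09 with DMSO and -2.20 and -2.11 with GW3965, a difference of 0.07 ± 0.20 with overlapping groups.

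**Figure D2:**
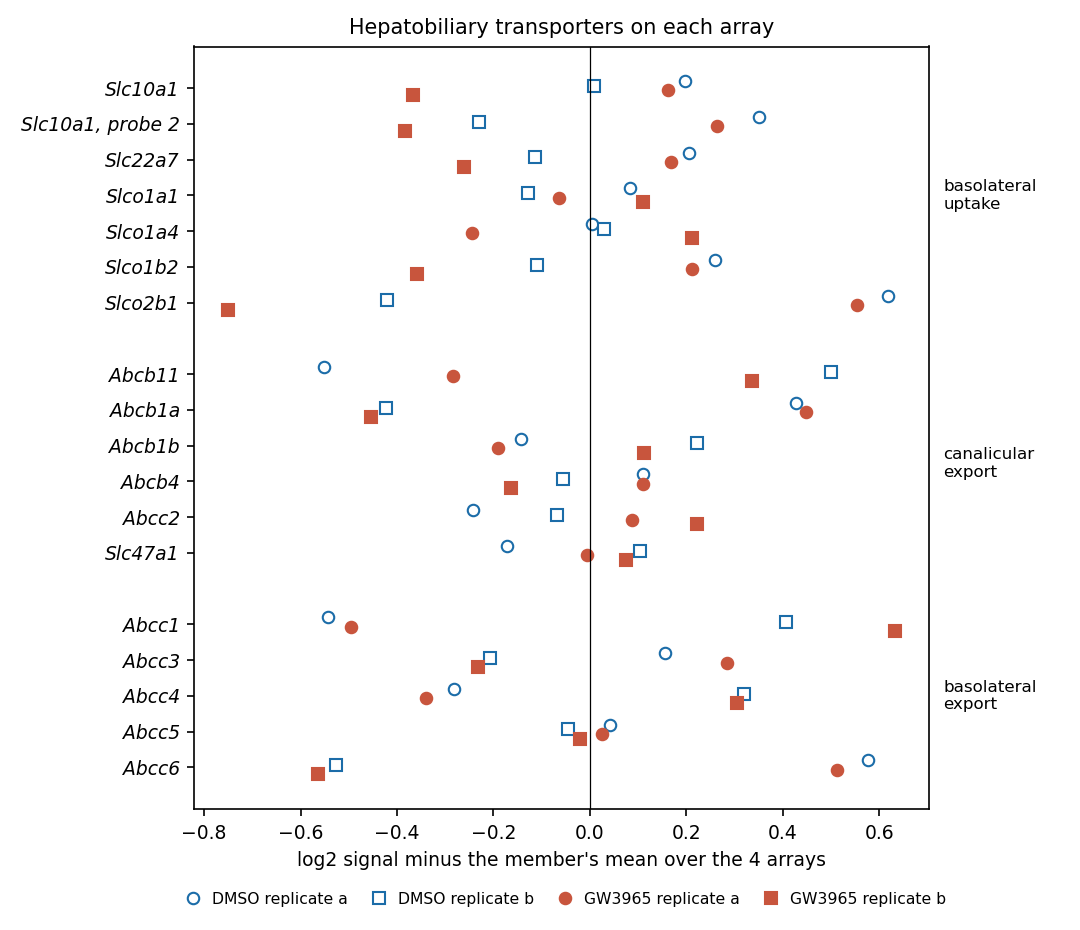
Log2 signal of each hepatobiliary transporter on each array, minus its mean over the 4 arrays. Open symbols are DMSO, filled symbols GW3965, circles replicate a and squares replicate b. In most rows the circles and squares sit on opposite sides, as in Slco2b1, Abcb1a, Abcc1 and Abcc6, while in Abcc2 the open and filled symbols do.

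The basolateral exporters, 5 of 5 measured, had a median difference of 0.0031, with 3 means higher and 2 lower. Abcc3, which returns glucuronides and bile acids to blood, read 5.29 and 4.93 with DMSO and 5.42 and 4.90 with GW3965. Abcc4, an exporter of bile acids with glutathione and of cyclic nucleotides, read 2.12 and 2.72 with DMSO and 2.06 and 2.70 with GW3965. Abcc3 was higher on the a arrays and Abcc4 on the b arrays, and the treatment differences were 0.05 ± 0.27 and -0.04 ± 0.34. Abcc1, an exporter of glutathione conjugates, read 2.33 and 3.28 with DMSO and 2.38 and 3.50 with GW3965, so that the b arrays were 2.05-fold above the a arrays and the treatments differed by 0.14 ± 0.51. Abcc6, the hepatic transporter whose loss causes ectopic calcification, read 0.32 and -0.79 with DMSO and 0.25 and -0.82 with GW3965, and here the a arrays were 2.13-fold above the b arrays and the treatments differed by -0.05 ± 0.53. The second Abcc6 probe had a gap of the same sign, -0.69. Abcc5, an exporter of organic anions and nucleotide analogues, read 0.84 and 0.75 with DMSO and 0.82 and 0.78 with GW3965, a difference of 0.0031 ± 0.18 and a gap between letters of -0.07.

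The ABCB transporters of organelles were measured in 5 of 5 cases, and these are mostly pumps of mitochondria and lysosomes. They differed between treatments by between -0.02 and 0.09, with a median of 0.04. By letter, 2 of the 5 were higher on both b arrays and 2 lower. Those apart, named here after their values were seen, were Abcb9, a lysosomal peptide transporter, and Abcb10, of the mitochondrial inner membrane, with gaps of 0.66 and 0.53, and Abcb6 and Abcb8, with gaps of -0.28 and -0.19. Centring on the median turned the median treatment difference of the 5 to -0.01.

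Of 7 SLC22 cation and carnitine transporters 5 were measured, with a median difference of 0.09 and 4 means higher. Slc22a15 read -1.22 and -1.17 with DMSO and -1.41 and -1.28 with GW3965. Both treated arrays were below both controls (-0.15 ± 0.18), and the second probe of the gene had the same order, at -4.01 and -4.23 against -4.38 and -4.49. Slc22a21, a carnitine carrier, read -1.75 and -1.58 with DMSO and -1.61 and -1.38 with GW3965, a difference of 0.17 ± 0.20. Slc22a4 and Slc22a5, the ergothioneine and carnitine carriers next to it on chromosome 11, differed between treatments by 0.01 and 0.09. All 3 of these neighbours were higher on the b arrays, by 0.13 to 0.20. Slc22a2 and Slc22a3, the organic cation carriers best known from kidney and from extraneuronal uptake, were not measured.

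Of the 40 other members 23 were measured, with a median difference of -0.03, 10 means higher and 13 lower. Slc10a7, a relative of the bile acid carriers with a role in bone, read -3.82 and -3.75 with DMSO and -4.23 and -3.76 with GW3965, and the groups overlapped (-0.21 ± 0.24). The members named next were picked after their values were seen, for their replicate gaps. Slc10a2, the ileal bile acid carrier that cholangiocytes also use, read -1.06 and -2.87 with DMSO and -1.14 and -2.93 with GW3965. Slco1a5 read -2.32 and -4.73 with DMSO and -2.46 and -4.27 with GW3965. The a arrays were 3.48-fold above the b arrays for Slc10a2 and 4.32-fold for Slco1a5, the widest gaps among the measured members. The probes that stood for both genes were well above background on all 4 arrays. The b readings of Slco1a5 were low, however, and its other probe was well above background on no array.

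Slc22a13b, a neighbour of the urate and nicotinate carrier Slc22a13 on chromosome 9, was higher on the b arrays by 2.24-fold, reading -0.76 and 0.64 with DMSO and -0.41 and 0.51 with GW3965. Slc22a13 itself read -1.32 and -0.51 with DMSO and -1.24 and -0.45 with GW3965. The third gene of that cluster, Slc22a14, was well above background on the b arrays alone, which left it unmeasured under the filter. Slc10a6, a carrier of sulphated steroids, was likewise unmeasured, with 1 probe well above background on the a arrays alone and the other on GW3965 replicate b alone. The remaining 17 unmeasured genes had no probe well above background on any of the 4 arrays.

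The arrays of the members thus separated by replicate letter more than by treatment. Both b arrays were above both a arrays in 19 members, against 38.4% of all genes, and below them in 23, against 28% of all genes. The letters were apart in 42 of 51 members (82.4%) and in 66.4% of all genes. The gap between letters was wider than the difference between treatments in 45 of 51 members (88.2%) and in 75.8% of all genes. The median size of the gap was 0.33 in the members and 0.26 in all genes, while that of the treatment difference was 0.07 and 0.10. At 2-fold or more the gap took in 6 members, 2 higher and 4 lower on b, among 1413 of all genes (5.74%). No test was made of the letters, since they mark replicates of a group, and nothing particular to the transporters is read from these counts.

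By class, the median of b minus a was -0.37 in the uptake carriers, with 5 of 7 below and 1 above, 0.17 in the canalicular exporters and -0.07 in the basolateral exporters, beside 0.06 in all genes. Centring each array on its median moved the median of all genes to -0.06, and those of the canalicular and basolateral exporters to 0.05 and -0.19, so class values are best read against the value for all genes. Under quantile normalization, median centring or normexp correction, the sign of the gap turned in Slc10a1, Slc22a15, Slc10a7 and Slco1a4 and in no other member. The 6 hepatocyte markers were all lower on the b arrays, with a median gap of -0.92, as were the 5 measured macrophage and leukocyte markers, with a median of -0.76. Endothelial markers were higher on b in 3 of 5 cases and lower in 1 (Kdr, with a gap of -0.37). Stellate cell and fibroblast markers were higher in 3 of 4 and lower in 0. Of the 4 measured cholangiocyte markers 2 were higher on b and 1 lower, with a median gap of 0.78. Krt19, a keratin of bile ducts, had the widest gap of them. It read -0.12 and 0.55 on the a arrays and 2.60 and 2.90 on the b arrays. The gap was 1.44 in Epcam, -0.50 in Sox9 and 0.12 in Spp1, whose letters overlapped. The part of the cell type markers in the members' gaps was not tested.

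**Figure D3:**
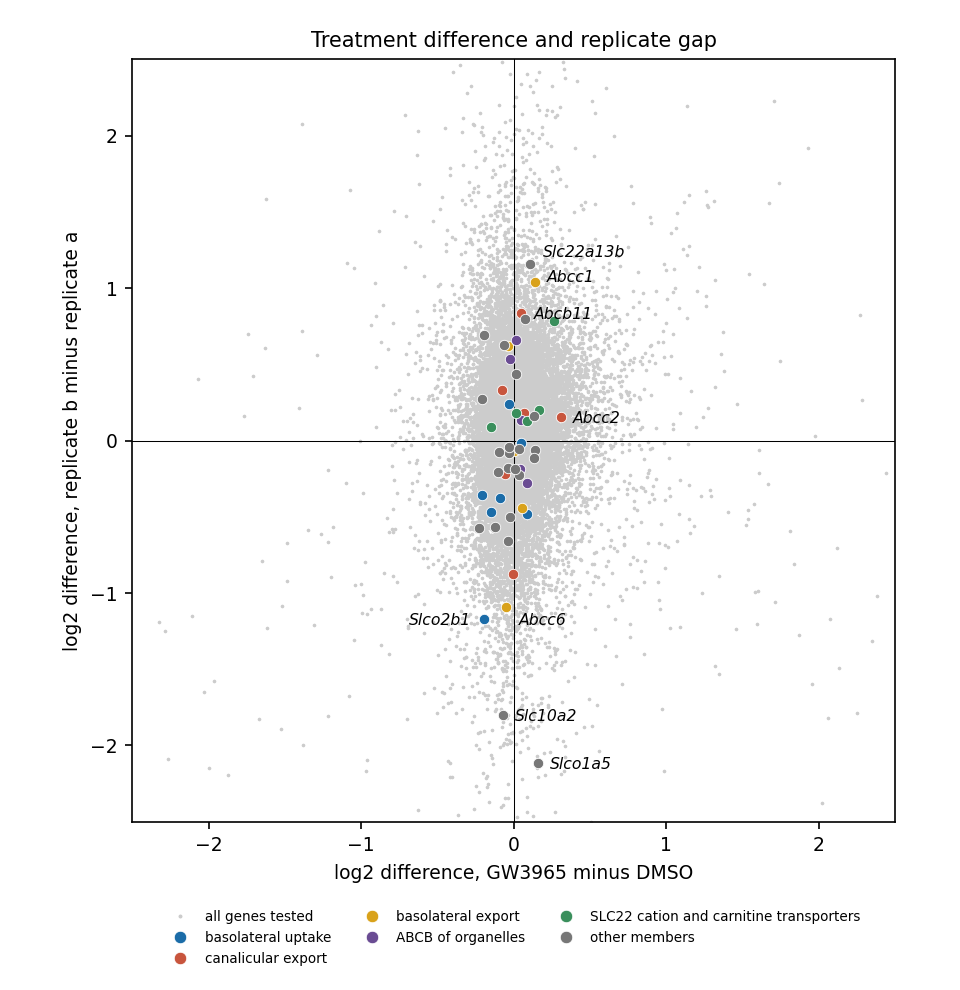
Log2 difference of replicate b minus replicate a (vertical) against GW3965 minus DMSO (horizontal). Grey dots are all 24637 genes tested, of which 78 lie outside the plotted range, and coloured points are the 51 measured members by class. The members lie within -0.23 and 0.31 on the horizontal axis and spread from -2.11 to 1.16 on the vertical one.

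Where a gene had several probes that passed, they differed more in the gap between letters than in the treatment difference. Such genes numbered 12. The treatment differences of the probes of 1 gene lay within 0.02 of each other in Abcb4 and within 0.30 in Slco3a1, a prostaglandin carrier with 3 such probes. The gaps of b minus a ranged over 1.27 in Abcb4 and 0.56 in Slco3a1, and their sign differed between probes in genes that include Abcc5, Slc22a15 and Slc22a28. Abcc8, the sulphonylurea receptor of insulin-secreting cells, had probes offset by 13 bases that share 47, with the gaps -0.18 and -0.26. The first read between -0.83 and -0.56 on the 4 arrays and the second between -5.17 and -4.71, though they share most of their sequence.

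**Figure D4:**
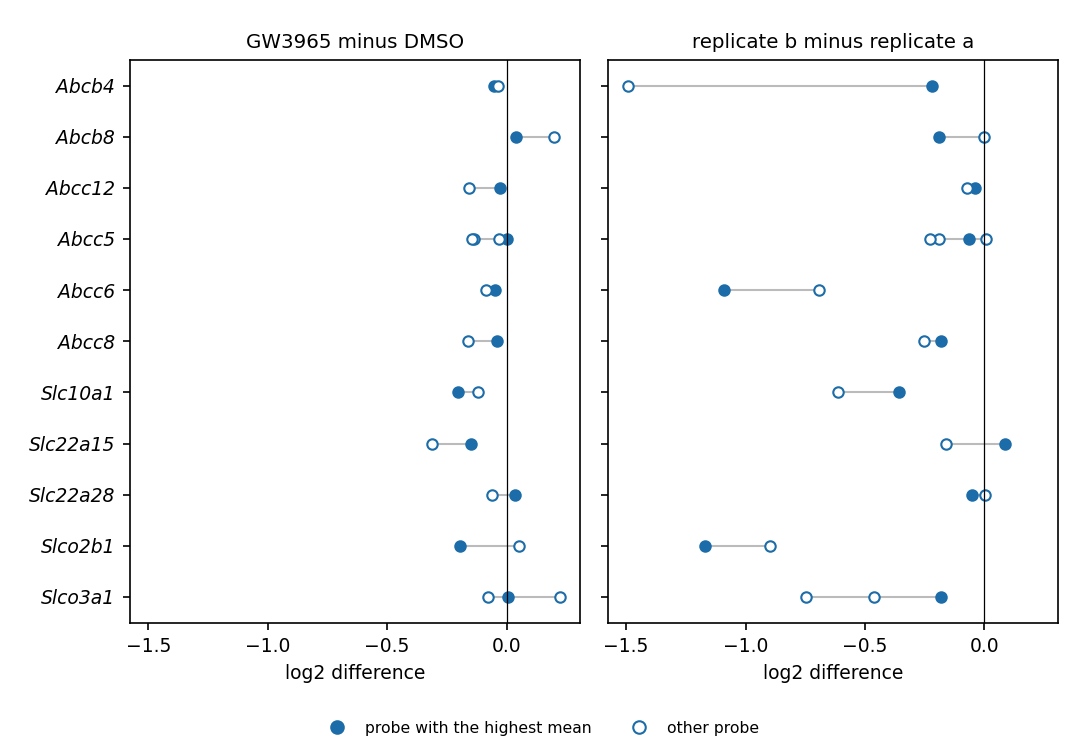
Log2 differences of every probe that passed, for 11 of the 12 members with more than 1 such probe; filled points mark the probe that stood for the gene. The left panel is GW3965 minus DMSO and the right panel replicate b minus replicate a. The probes of Abcb4 lie within 0.02 of each other on the left and 1.27 apart on the right.

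Beyond the transporters, 19 other genes of bile acid synthesis, transport and control were listed, and 16 were measured. In limma with Benjamini-Hochberg adjustment 0 of the 16 passed, and an unadjusted p under 0.05 was found for 0 of them. Means were higher with GW3965 in 5 and lower in 11, with a median of -0.15. In 1 of the 16 both treated arrays lay below both controls, against 6.55% of all genes. In 0 they lay above them, against 9.41%. The 1 gene was Abcg2, a canalicular pump of urate and drugs. It read 4.40 and 4.42 on the DMSO arrays and 4.23 and 4.29 on the treated ones (-0.15 ± 0.18). Nothing particular to the list is read from these counts. The bile acid receptor Nr1h4 read 0.38 and -0.22 with DMSO and -0.02 and -0.43 with GW3965, overlapping by group. Cyp7a1, which catalyses the rate-limiting step from cholesterol to bile acids, Cyp8b1, which sets the share of cholic acid, and Slc51a, a subunit of the basolateral bile acid exporter, were not measured.

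In these genes the letters were apart too. Of the 16, 12 were lower on both b arrays, against 28% of all genes, and 3 were higher, against 38.4%. Their median gap was -0.55, beside 0.06 over all genes. No test was made of these counts. Hnf4a, a transcription factor that maintains hepatocyte genes, read 4.08 and 2.79 with DMSO and 4.03 and 2.35 with GW3965. Fgfr4, the receptor through which intestinal FGF15 represses bile acid synthesis, read 1.68 and -0.52 with DMSO and 1.18 and -0.85 with GW3965. Both were lower on the b arrays, whereas Baat, Nr0b2 and Klb were the 3 higher there. The uptake carriers Slc10a1, Slco1b2, Slc22a7 and Slco2b1 and the canalicular exporters Abcb4 and Abcb1a were lower on b too. The canalicular exporters Abcb11, Abcb1b and Slc47a1 and the uptake carrier Slco1a4 were higher. On its first probe the gap of Slc10a1 turned under quantile normalization.

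LXR binds DNA with a partner receptor at repeats of the letters AGGTCA, so promoters of the members, from 250 bases before to 50 bases after the start of the gene in RefSeq (GRCm38.p6), were searched for these letters on both strands. Entries were found for 55 of the 70 genes, in 63 windows. The single unit AGGTCA was present in 11 of the 63 (17.5%) and in 16.3% of all 32851 windows of that length. The direct repeat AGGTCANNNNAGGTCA was in 0 of the 63 and in 0.0152% of all windows, and the inverted repeat AGGTCANTGACCT, a form known for the bile acid receptor, in 0 and in 0.00913%. The single unit stands within each of these longer motifs. Windows of 30 bases with the unit in capitals are shown for the pair of canalicular exporters described first and for 1 uptake carrier, as examples of a match. Since no gene on the arrays was called, the calls cannot be compared between genes with and without the unit. Each is printed on the strand of its gene and lies at chr19:43782247-43782276 (plus) for Abcc2, chr2:69342655-69342684 (minus) for Abcb11 and chr6:141629425-141629454 (plus) for Slco1b2.
Abcc2: tgtcaggatgaaAGGTCAggagacttgcct
Abcb11: actttaggccatTGACCTataagcaaatag
Slco1b2: tgtgtaggacagTGACCTgaagagatagtt

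The letters TGACCT are AGGTCA read on the opposite strand. The unit began 49 bases before the start of Abcc2, 56 before that of Abcb11 and 81 before that of Slco1b2. No binding was measured in these samples, and a match says only that the letters are there.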

How the data were processed

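RNA of 4 samples of primary mouse hepatocytes, 2 per group, was labelled with Cy3 and hybridised to arrays of Agilent design 028005. Per the file headers, the deposited values are linear processed signal intensity from Agilent Feature Extraction 10.7.3.1, corrected for background and not scaled between arrays, with probe positions on mm9, while version 11.5.1.11 is the one in the submitters' processing notes. The table of values that the authors deposited holds the same intensity with differences of 0. No earlier tool is named in the labels or headers.

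Outlier and control spots were left out. Signals were log2 transformed and averaged over a probe's spots, less the 75th percentile of the array. The filter asked for a signal well above background on every array of 1 group or the other and kept 35482 probes, of which 3 had no value on an array. RefSeq accessions named 84 of the 93 member probes, and the probe with the highest mean stood for a gene. The 24637 genes were fitted with limma 3.58.1 in R 4.3.3 (files read with data.table, version 1.17.8), by group without a block, with two-sided tests, 2 residual and 2.72 prior degrees of freedom and Benjamini-Hochberg adjustment over all genes at 0.05. The fit was run on simulated data with independent noise of equal size in every gene. Those data lack the gap between letters seen here, so the run does not show how the fit performs on these arrays. The ± values of differences are SE of this model. The number of arrays limits the precision.

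Values by array were given for every measured uptake carrier, canalicular exporter and basolateral exporter, for other members apart between groups by 1.5-fold (0 found), and for the 3 other members with the smallest p. Members beyond this rule are named as such, and the values of 2 members are not reported here. The members, classes and lists were chosen with earlier results of these data known. Alternatives were quantile normalization, median centring, normexp correction (offset 50), the deposited values, no filter or a filter on all arrays, a gene's probes averaged or kept apart, an intensity trend or robust prior, other thresholds, the replicate block and each array left out. The second Slc10a1 probe, and the letter gaps under each setting, were added after seeing the data. Runs of 16 bases were matched exactly. Figures were drawn with matplotlib 3.10.9 and pandas 2.3.3.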

Additional observations from a re-analysis of the deposited data

How the results depend on the processing

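The number of members passing an adjusted p under 0.05 in limma was 0 under every alternative, with each array left out included. At an unadjusted p under 0.05 it was 0 in every setting that kept all arrays, except without a filter on dim probes. There it was 1 of 70, beside 536 of 35077 genes. A paired alternative was fitted with the replicate block, although the labels do not say what a letter stands for. In that fit 15 of all genes and 0 members passed, and genes with an unadjusted p under 0.05 rose from 203 to 1333. The smallest member p there was 0.0517 for Abcc2 (limma, adjusted p 0.927). Every member had a smaller SE with the block, as in Abcb1a (0.126, from 0.441) and Slco1a5 (0.179, from 0.999). Deviations from group means correlated at 0.72 for the same letter. The -0.72 for different letters follows by arithmetic, since the 2 deviations within a group are opposite. Median centring moved the median difference of all measured members, and of the basolateral exporters, to -0.04732 (Abcc5 had this value), and moved Slco1a1 to -0.004357. Abcb1a turned to 0.002201 under quantile normalization and 0.000361 under normexp, and Abcc5 to -0.07773 with probes averaged. Centring, like the main scaling, subtracts 1 value from each array, so it moves the treatment difference of every gene by the same amount. The other Abcc5 probes had differences of -0.14, -0.15 and -0.03, beside 0.0031 on the probe that stood for the gene. Why Abcb1a turned was not tested. With each array left out in turn, the median ranged from -0.04288 to 0.05063 over all members, from -0.01948 to 0.1543 over the canalicular exporters from -0.3063 to 0.1221 over the uptake carriers and from -0.04006 to 0.04633 over the basolateral exporters. It ranged from -0.1274 to 0.1966 over the ABCB transporters of organelles, from -0.08094 to 0.1655 over the SLC22 cation and carnitine transporters and from -0.07766 to 0.08597 over the other members. Without a filter, 2 of 70 members were apart by 1.5-fold, and the share of all genes in that setting was not counted.

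With each array left out in turn, the differences ranged as follows. Among uptake carriers Slc10a1 ranged from -0.4681 to 0.05945, Slc22a7 from -0.3063 to 0.1221, Slco1a1 from -0.05993 to 0.1521, Slco1a4 from -0.2605 to 0.1948, Slco1b2 from -0.4335 to 0.1369 and Slco2b1 from -0.8491 to 0.4556. Among exporters into bile Abcb11 ranged from -0.4743 to 0.5771, Abcb1a from -0.4554 to 0.4462, Abcb1b from -0.2607 to 0.1025, Abcb4 from -0.1905 to 0.08365, Abcc2 from 0.2225 to 0.3966 and Slc47a1 from -0.06904 to 0.2061. Among basolateral exporters Abcc1 ranged from -0.4259 to 0.7022, Abcc3 from -0.207 to 0.3108, Abcc4 from -0.3588 to 0.2854, Abcc5 from -0.04006 to 0.04633 and Abcc6 from -0.6018 to 0.5015. Slc10a7 ranged from -0.4419 to 0.02439. An array left alone in its group was assumed to vary like the other group. Signal near background limits the unmeasured members and, among the measured ones, Slc10a4, Slco5a1, Slc47a2, Slc22a16 and the b arrays of Slco1a5.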
